A study of Mus musculus with 8 samples.

Results

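The genes described here belong to bone morphogenetic protein (BMP) signalling and to the Id family that it switches on. They are the ligands Bmp2 and Bmp4, the receptor Bmpr1a, the signal transducer Smad1, the inhibitory SMADs Smad6 and Smad7, and Id1, Id2, Id3 and Id4. The members were all probe sets, other than controls, that the platform's gene annotation assigns to exactly 1 of these 10 genes. There were 22 of them among 45037, and none named a member together with another gene. Total RNA was compared between SThdh111/111 and SThdh7/7 on Affymetrix whole-genome mouse arrays, with 4 samples of each line. Lines of these names are conditionally immortalised cells from the embryonic striatum of Huntingtin (Htt) knock-in mice, and the name counts the glutamines that each Htt allele encodes: SThdh111/111 carries the long stretch that models Huntington's disease, and SThdh7/7 the short one. Both lines carry the immortalising gene. The labels give no treatment, and each genotype is represented by 1 line, so genotype and any other difference between the lines cannot be told apart. Whether the samples of a line are separate cultures is not stated, and p-values cover the spread among these samples, which may be technical.

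BMP ligands bind a complex of type I and type II receptor kinases at the cell surface. The type I receptor, Bmpr1a among others, phosphorylates Smad1 and its relatives, which enter the nucleus with Smad4 and raise the transcription of target genes. The best known targets are the Id genes, whose proteins carry a helix-loop-helix but no DNA-binding region, and so hold E proteins and other basic helix-loop-helix (bHLH) factors off DNA and delay differentiation. Smad6 and Smad7 are targets too, and brake the signal that made them. In the embryonic forebrain, BMP signals pattern the dorsal side and Id genes are active in neural progenitors.

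The arrays limit what can be read at low signal. Arrays correlated at 0.922 to 0.924 within SThdh111/111, at 0.906 to 0.927 within SThdh7/7 and at 0.866 to 0.885 across lines. Within SThdh7/7, samples 1 and 2 differed from the rest, with median intensities of 173.9 and 174.0, against 136.2 to 147.0 on the 6 other arrays. Values under a log2 intensity of 7.02 are treated as below background, a floor set by bacterial control probe sets. Of 12 markers of striatal neurons, 10 had a kept probe set, and of these only Rgs9 and Foxp1 were above that floor on all 8 arrays, while Ppp1r1b, Drd1 and Gad1 were below it on every array. In SThdh111/111 2 of the 10 rose and 1 fell: Penk (proenkephalin) averaged 9.63 ± 0.07 in SThdh111/111 and 6.67 ± 0.92 in SThdh7/7 (log2 intensity, SD, n = 4; adjusted p = 2.5e-05), with 1 SThdh7/7 array above the floor, Foxp1 rose by 0.29 and Rgs9 fell by 0.71. Markers of mesenchymal cells and fibroblasts were bright: 9 of 12 rose in SThdh111/111 and 0 fell, their summed intensity was 167290 to 186691 in SThdh111/111 and 78479 to 82326 in SThdh7/7, and none lay below the floor on every array. Of 8 astrocyte markers 2 rose (Slc1a3 and Gja1) and 1 fell (Aldh1l1). Of 8 markers of microglia and haematopoietic cells 1 rose (Csf1r) and 1 fell (Cd68). Of all genes, each at its brightest probe set, 13.1% were called higher and 15.9% lower. The part of the mesenchymal markers in the results below was not tested. In bulk samples fewer cells of a type and less RNA per cell cannot be told apart. Across the 41409 kept probe sets SThdh111/111 minus SThdh7/7 had a median of -0.12 on the log2 scale, and 0.04 with array medians made equal (centring). Differences below are as deposited.

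Id4 was far lower in SThdh111/111, while Id3, Smad6, Bmp4 and Bmpr1a were higher. Smad1 and Id2 did not pass the test at any probe set. Of 22 member probe sets 21 passed the filter on dim signal, which asked for 4 arrays with a log2 intensity of 4 or more. By limma with Benjamini-Hochberg adjustment, 7 of the 21 were called higher in SThdh111/111 and 4 lower, at an adjusted p under 0.05. Over all kept probe sets 9.87% were called higher and 12.6% lower, 22.4% in all. At the brightest probe set of each gene, 5 of 10 members were higher, 2 lower and 3 not called, against 13.1% higher and 15.9% lower over 17389 genes. The lines did not overlap at 10 of the 21 member probe sets, against 25.1% of all kept ones. The median difference was 0.07 over the 21 member probe sets and 0.34 over the 10 brightest.

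**Figure D1:**
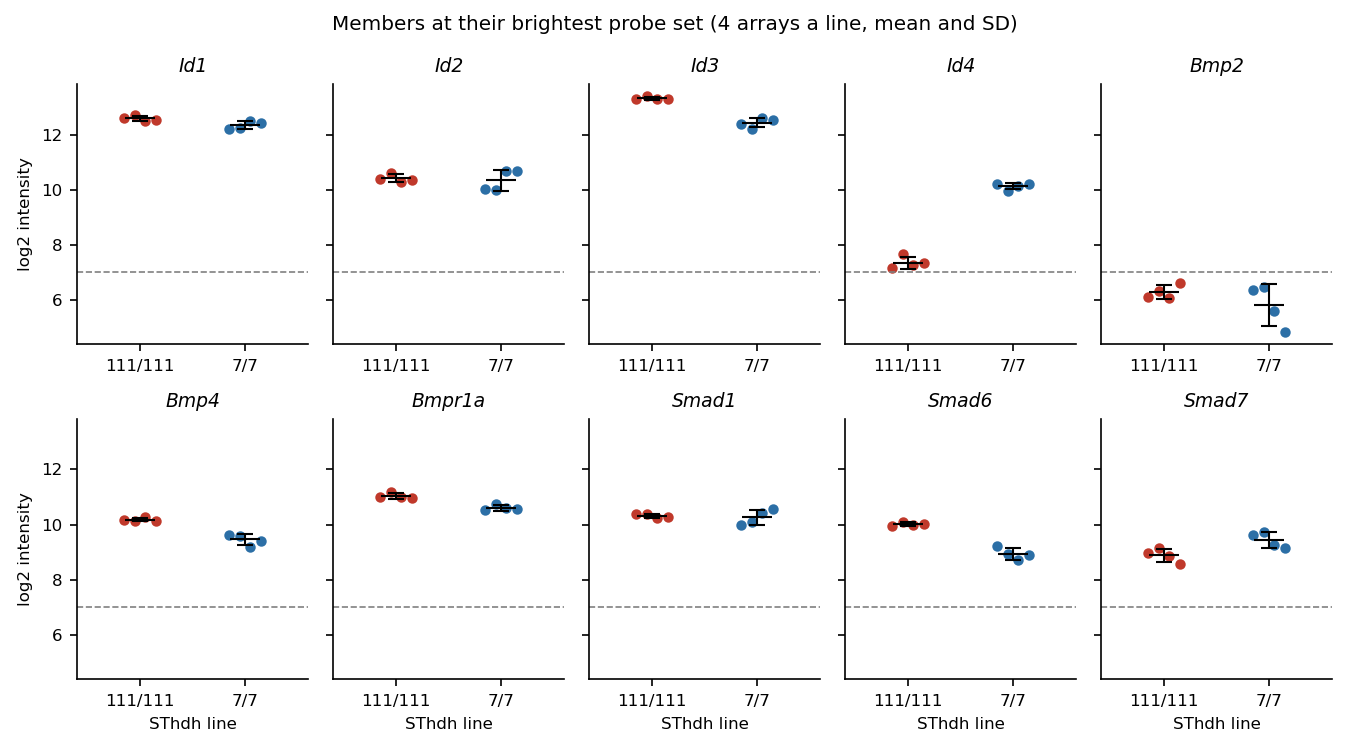
Log2 intensity of the brightest probe set of each of the 10 members on the 4 SThdh111/111 arrays (red, left in each panel) and the 4 SThdh7/7 arrays (blue, right), with the mean and SD in black and the floor of 7.02 dashed. Id4 lies near 7 to 8 in SThdh111/111 and near 10 in SThdh7/7, Id3, Bmp4, Bmpr1a and Smad6 are higher in SThdh111/111 without overlap, and Bmp2 is below the floor on all 8 arrays.

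Id4, which in mouse keeps neural progenitors of the developing forebrain dividing, was the member with the lowest adjusted p. Its brightest probe set, 1423260_at, had log2 intensities of 7.15, 7.66, 7.27 and 7.35 in SThdh111/111 samples 1 to 4, against 10.21, 9.97, 10.14 and 10.20 in SThdh7/7. Every array was above the floor, and the lowest SThdh7/7 array stood 2.31 above the highest SThdh111/111 array. By this probe set Id4 fell by 2.77 ± 0.14 on the log2 scale (SE, n = 4 arrays per line), or 6.84-fold (limma, adjusted p = 6.4e-09). Only 0.671% of the kept probe sets fell by as much or more.

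The other probe sets of Id4 moved the same way. Probe set 1423259_at had log2 intensities of 4.61, 5.86, 6.04 and 5.88 in SThdh111/111, against 10.63, 10.48, 10.29 and 10.51 in SThdh7/7. All SThdh111/111 arrays lay below the floor, so Id4 was at least 10.98-fold lower there by this probe set (adjusted p = 2.1e-08). Probe set 1450928_at had 5.84, 6.28, 6.48 and 5.77 in SThdh111/111, against 9.53, 9.56, 9.90 and 9.78 in SThdh7/7. It too was below the floor on every SThdh111/111 array, and at least 6.36-fold lower (adjusted p = 3.5e-08). The fitted falls of these probe sets, 4.88 and 3.60 on the log2 scale, rest on values below the floor and are not read as sizes. The bound of 10.98-fold exceeds the 6.84-fold of 1423260_at, whose SThdh111/111 values of 7.15 to 7.66 were close to the floor of 7.02. Why the probe sets differ in size was not tested.

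**Figure D2:**
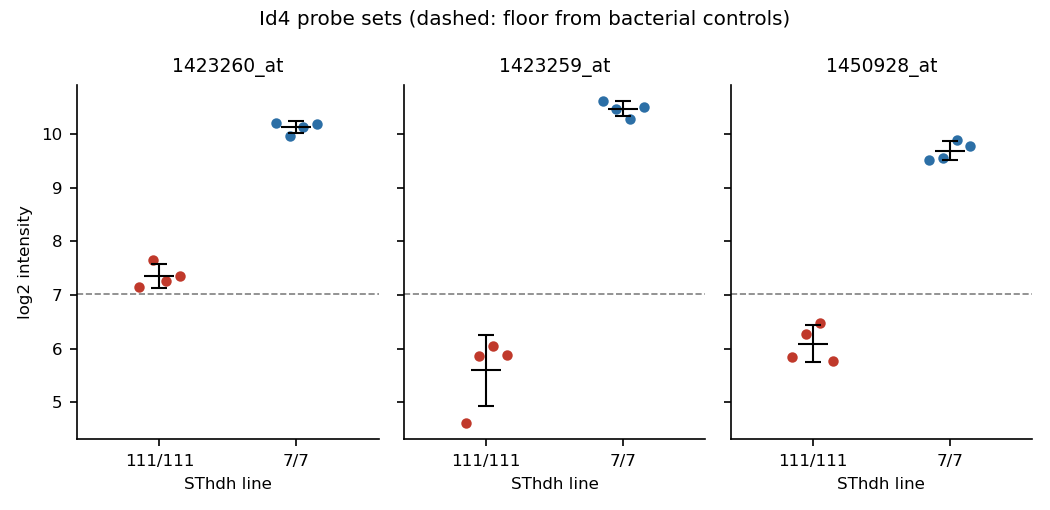
Log2 intensity of the 3 Id4 probe sets on the 4 SThdh111/111 arrays (red, left) and the 4 SThdh7/7 arrays (blue, right), with the mean and SD in black and the floor of 7.02 dashed. In SThdh111/111 only 1423260_at is above the floor, between 7.15 and 7.66, and in SThdh7/7 all 3 probe sets lie between 9.53 and 10.63.

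Id3, a relative of Id4 that is expressed in many dividing cell types, was the brightest member and moved the other way. It had log2 intensities of 13.30, 13.39, 13.28 and 13.29 in SThdh111/111, against 12.39, 12.22, 12.60 and 12.53 in SThdh7/7. All SThdh111/111 arrays were above all SThdh7/7 arrays. Id3 rose by 0.88 ± 0.08 (SE), or 1.84-fold (adjusted p = 1.5e-06), and by 0.75 without SThdh7/7 samples 1 and 2.

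Id1, the classical BMP target of the family, was nearly level. It had log2 intensities of 12.60, 12.73, 12.50 and 12.53 in SThdh111/111, against 12.22, 12.23, 12.50 and 12.41 in SThdh7/7. The lowest SThdh111/111 array was only 0.0068 above the highest SThdh7/7 array. The difference of 0.25 ± 0.08 (SE; 1.19-fold) passed the threshold (adjusted p = 0.031), but the call was lost after quantile normalization, where it was 0.13 (adjusted p = 0.19), with centred arrays (0.40, adjusted p = 0.094), without an intensity trend (adjusted p = 0.19) and without SThdh7/7 samples 1 and 2 (0.14, adjusted p = 0.26). Leaving out SThdh111/111 sample 1 or 2 or SThdh7/7 sample 1 or 2 also ended it, with adjusted p of 0.070, 0.11, 0.086 and 0.091.

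Id2, which in mouse is needed for the development of several blood cell and neural lineages, did not pass the test. Its brightest probe set had log2 intensities of 10.41, 10.62, 10.28 and 10.37 in SThdh111/111, against 10.03, 9.99, 10.68 and 10.67 in SThdh7/7. SThdh7/7 samples 1 and 2 lay below every SThdh111/111 array and samples 3 and 4 above every one, so the lines overlapped. The difference was 0.07 ± 0.16 (SE; adjusted p = 0.80) with all arrays, and -0.26 without SThdh7/7 samples 1 and 2 (adjusted p = 0.10). The remaining Id2 probe sets differed by 0.03 (adjusted p = 0.93) and -0.14 (adjusted p = 0.84), and 1453596_at was above the floor on 1 of 4 SThdh111/111 and 2 of 4 SThdh7/7 arrays.

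Whether the Id genes differed between the lines by unequal amounts was tested on the ratio of 2 probe sets within each array, for all 6 pairs, with an exact two-sided permutation test over the 8 arrays. The smallest p this design allows is 0.0286, and 5 of 6 pairs reached it (adjusted p = 0.034). The Id3 to Id4 ratio was 5.96 ± 0.18 in SThdh111/111 and 2.30 ± 0.12 in SThdh7/7 (log2, SD, n = 4), a gap of 3.66. The Id1 to Id4 and Id2 to Id4 ratios were higher in SThdh111/111 by 3.02 and 2.85. Id3 also rose relative to Id1 and Id2, since the Id1 to Id3 and Id2 to Id3 ratios fell by 0.63 and 0.81 on the log2 scale. Id1 against Id2 gave 0.18 (exact permutation p = 0.4). Such ratios show unequal change, not which gene changed.

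The promoters of the Id genes in the RefSeq table (GRCm38.p6) are printed because these genes sit on different chromosomes and parted between the lines. Each window runs from 250 bases before the annotated start to 20 after it. Id2 lies at chr12:25096073-25096342 on the minus strand, Id3 at chr4:136143572-136143841 on the plus strand and Id4 at chr13:48260866-48261135 on the plus strand. Capitals mark GGCGCC, a GC-rich sequence that BMP-activated SMADs are known to bind, which reads the same on both strands.
Id4: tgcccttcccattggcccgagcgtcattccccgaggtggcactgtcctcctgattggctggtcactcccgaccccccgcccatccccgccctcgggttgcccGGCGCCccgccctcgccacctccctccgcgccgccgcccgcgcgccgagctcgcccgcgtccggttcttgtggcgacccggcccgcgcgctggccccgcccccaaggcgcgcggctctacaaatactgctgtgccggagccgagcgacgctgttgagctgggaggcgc
Id3: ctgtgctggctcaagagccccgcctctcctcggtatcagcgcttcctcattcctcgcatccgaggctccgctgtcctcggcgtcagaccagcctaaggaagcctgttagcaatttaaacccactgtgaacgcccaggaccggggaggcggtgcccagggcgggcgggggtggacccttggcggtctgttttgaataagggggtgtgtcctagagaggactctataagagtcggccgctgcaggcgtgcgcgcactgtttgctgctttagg
Id2: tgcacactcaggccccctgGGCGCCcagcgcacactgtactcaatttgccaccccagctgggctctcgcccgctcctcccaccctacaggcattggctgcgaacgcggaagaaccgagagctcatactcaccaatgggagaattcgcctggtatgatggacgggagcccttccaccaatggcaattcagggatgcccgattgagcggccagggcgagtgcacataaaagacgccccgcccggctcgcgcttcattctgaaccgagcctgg
GGCGCC occurred 1 time in the Id4 window, 148 bases before the start, and 1 time in the Id2 window, 231 bases before it, and it was not in the Id3 window. Of 32851 mouse promoter windows of the same length 10.4% held it. The core SMAD sequence GTCT, counted on both strands, occurred 2 times in the Id3 window, 1 time in Id2 and 0 times in Id4, and 85.2% of all windows held it. The E-box CANNTG, the site of the bHLH factors that Id proteins hold back, occurred 1 time in Id2 and in neither Id3 nor Id4, against 68.9% of all windows. GC made up 75.2% of the Id4 window, 61.9% of Id3 and 62.2% of Id2, against a median of 52.6%. GGCGCC was also in the window of Bmpr1a, which rose, so among the members it was in windows of genes called lower, called higher and not called.

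Of the ligands, Bmp4 was above the floor on every array and Bmp2 on none. Bmp4, a secreted ligand of the dorsal neural tube and of mesenchyme, had log2 intensities of 10.18, 10.14, 10.27 and 10.15 in SThdh111/111, against 9.64, 9.60, 9.20 and 9.41 in SThdh7/7. The lines did not overlap. Bmp4 rose by 0.72 ± 0.11 (SE), or 1.65-fold (adjusted p = 1.8e-04), and by 0.88 without SThdh7/7 samples 1 and 2. Bmp2, a close relative that binds the same receptors, had 6.13, 6.35, 6.09 and 6.62 in SThdh111/111, against 6.38, 6.46, 5.61 and 4.83 in SThdh7/7. Every value was below the floor, so no fold is given (adjusted p = 0.57).

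Bmpr1a, the type I receptor that binds both ligands, was modestly higher. At its brightest probe set, 1425492_at, log2 intensities were 11.00, 11.19, 11.00 and 10.96 in SThdh111/111, against 10.52, 10.74, 10.61 and 10.55 in SThdh7/7. The lines did not overlap, and Bmpr1a rose by 0.43 ± 0.08 (SE), or 1.35-fold (adjusted p = 0.0011). All 5 kept probe sets of the gene had positive differences, between 0.31 and 0.63, and 3 of them passed the test. The other called ones were 1425493_at (0.36, adjusted p = 0.0069) and 1425491_at (0.31, adjusted p = 0.025). The 1425491_at call was lost in 5 of the 8 fits with 1 sample left out, where the difference stayed between 0.28 and 0.37, and both were lost without an intensity trend. Probe sets 1425494_s_at and 1451729_at differed by 0.32 (adjusted p = 0.15) and 0.63 (adjusted p = 0.052), and their lines overlapped. Without SThdh7/7 samples 1 and 2 the difference of 1425494_s_at was 0.0343 (adjusted p = 0.892), and it was called without SThdh7/7 sample 4 (0.47, adjusted p = 0.0136). Probe set 1451729_at was called in 7 of 19 alternatives, with adjusted p across them from 0.0198 to 0.153. A sixth, 1445413_at, was too dim to be kept.

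Smad1, the transducer that Bmpr1a phosphorylates, was not called at any of its 3 probe sets. The brightest had log2 intensities of 10.38, 10.37, 10.23 and 10.27 in SThdh111/111, against 9.97, 10.09, 10.41 and 10.57 in SThdh7/7. As with Id2, SThdh7/7 samples 1 and 2 were below and samples 3 and 4 above all SThdh111/111 arrays. The difference was 0.05 ± 0.12 (SE; adjusted p = 0.82), and -0.18 without SThdh7/7 samples 1 and 2 (adjusted p = 0.22). The remaining probe sets differed by -0.15 (adjusted p = 0.38) and -0.03 (adjusted p = 0.95). Arrays measure transcript, and the phosphorylation that activates Smad1 is not visible to them.

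The inhibitory SMADs were called in opposite directions at their brightest probe sets. Smad6, which blocks BMP-activated SMADs in particular, had log2 intensities of 9.96, 10.10, 9.98 and 10.03 in SThdh111/111, against 9.23, 8.93, 8.72 and 8.91 in SThdh7/7. The lowest SThdh111/111 array was 0.74 above the highest SThdh7/7 array. Smad6 rose by 1.07 ± 0.12 (SE), or 2.10-fold (adjusted p = 9.8e-06), the largest called rise among the members.

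Smad7, which blocks both the BMP and the TGF-beta branch, had log2 intensities of 8.97, 9.14, 8.86 and 8.57 in SThdh111/111, against 9.62, 9.73, 9.27 and 9.14 in SThdh7/7. The lines overlapped narrowly at 9.14, and SThdh7/7 samples 1 and 2 were the highest arrays. Smad7 fell by 0.55 ± 0.16 on the log2 scale (SE; adjusted p = 0.024), but the difference was -0.31 without SThdh7/7 samples 1 and 2 (adjusted p = 0.25) and -0.40 after centring (adjusted p = 0.097), and the call was also lost without an intensity trend (adjusted p = 0.0925). Leaving out SThdh111/111 sample 3 or 4, or SThdh7/7 sample 1 or 2, also ended the call, with adjusted p between 0.0537 and 0.0745. Its other probe set, 1443771_x_at, read below the floor in SThdh111/111 throughout and above it on 2 SThdh7/7 arrays of 4, and differed by 0.06 (adjusted p = 0.95).

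The Smad6 promoter window (chr9:64022040-64022309, minus strand, GRCm38.p6) is printed because this gene rose most and its window holds the palindromic SMAD sequence GTCTAGAC, in capitals.
Smad6: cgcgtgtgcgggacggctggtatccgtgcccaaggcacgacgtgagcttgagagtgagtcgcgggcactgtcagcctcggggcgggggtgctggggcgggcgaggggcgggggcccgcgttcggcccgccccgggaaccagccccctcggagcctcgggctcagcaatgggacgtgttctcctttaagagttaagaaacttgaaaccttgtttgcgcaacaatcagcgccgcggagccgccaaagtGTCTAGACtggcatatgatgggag
The match begins 4 bases before the annotated start and crosses it, and it contains GTCT once on each strand. GTCTAGAC was in 0.183% of all windows of this length. None of the other 6 members with a window, Id2, Id3, Id4, Bmp4, Bmpr1a and Smad1, held it. GGCGCC was not in the Bmp4, Smad1 or Smad6 window.

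**Figure D3:**
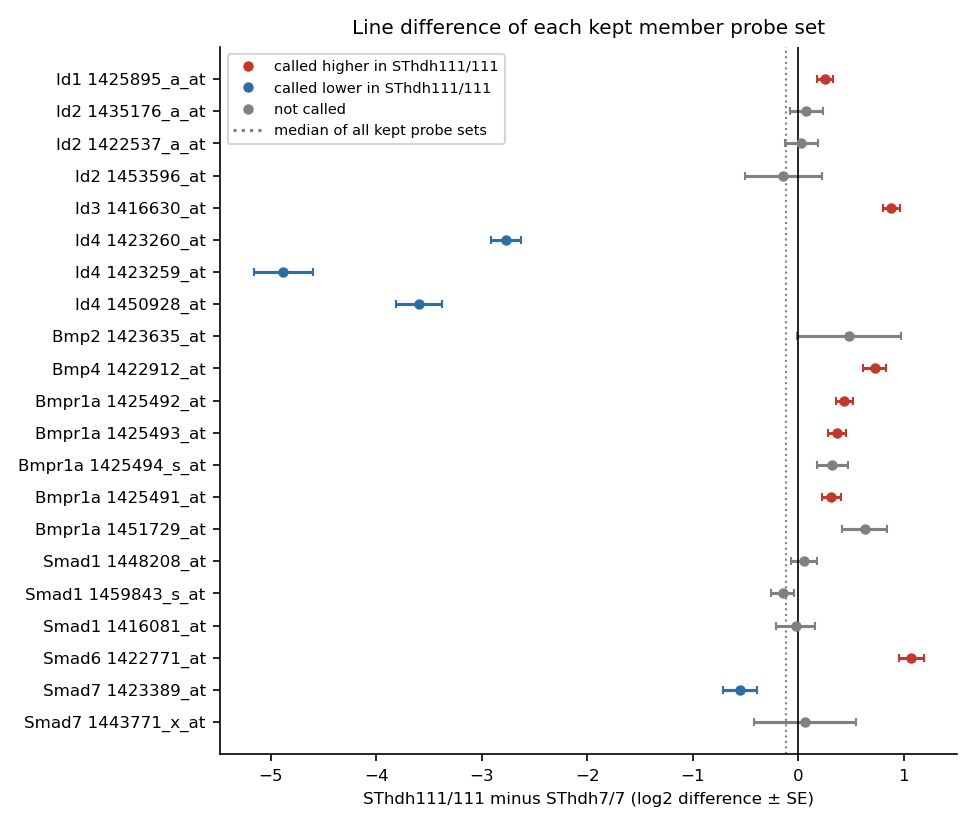
Log2 difference, SThdh111/111 minus SThdh7/7, with its SE, for the 21 kept member probe sets, coloured by call, with the median of all kept probe sets dotted at -0.12. The 3 Id4 probe sets lie between -4.88 and -2.77, the called rises lie between 0.25 and 1.07, and the Smad1 and Id2 probe sets lie around 0.

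Besides the members, 70 genes of the pathway and of the bHLH factors that Id proteins hold back were measured, from 7 lists. In SThdh111/111 9 of them were called higher and 16 lower, 35.7% in all. Of all genes at their brightest probe set 13.1% were higher and 15.9% lower, 29% in all. The counts of each list below stand beside these shares. The median difference of the 70 genes was -0.31, against -0.09 over all genes. Of the 70, 8 lay below the floor on every array, and their values enter the median. After centring of the arrays 11 genes of the 7 lists, members included, were lower, against 18 as deposited.

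The secreted antagonists held the largest called falls of the 7 lists. Of 19 measured antagonists and modulators 6 fell and 3 rose (median -0.48), against 15.9% and 13.1% of all genes. In this list 4 genes lay below the floor on every array, and their values enter the median. Grem1 (Gremlin), which traps Bmp2 and Bmp4 outside the cell, was at 8.76 ± 0.06 in SThdh111/111 and 12.10 ± 0.09 in SThdh7/7 (log2 intensity, SD, n = 4), and fell by 3.34 ± 0.08 on the log2 scale (SE), or 10.09-fold (adjusted p = 2.2e-12). Bmper, a BMP-binding endothelial regulator, was at 7.37 ± 0.27 in SThdh111/111 and 11.00 ± 0.08 in SThdh7/7, a 12.4-fold fall (adjusted p = 2.4e-10). Both genes were above the floor on all 8 arrays and the lines were far apart.

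Other modulators fell less. Crim1, a membrane protein that binds BMPs, was lower by a log2 difference of -1.45, and the protease gene Bmp1, which cleaves the antagonist chordin, of -1.04. Fstl1, a follistatin-like glycoprotein, and Nbl1, an antagonist of the DAN family, fell by 0.96 and 0.65. The Nbl1 call was lost after centring (adjusted p = 0.059). Against these, Fst (follistatin), which binds activins and some BMPs, was at 11.40 ± 0.14 in SThdh111/111 and 9.55 ± 0.27 in SThdh7/7 (SD, n = 4), and rose by 1.85 ± 0.12 (SE; adjusted p = 7.9e-08). Twsg1, which modulates chordin and BMP binding, rose by 0.89 at its brightest probe set (adjusted p = 3.2e-06). Its other kept probe sets differed by 0.82 (adjusted p = 4.1e-06), 0.31 (adjusted p = 0.037) and 0.06 (adjusted p = 0.92, not called). Chrdl1, a chordin-like antagonist, exceeded the floor on all SThdh111/111 arrays and on 1 SThdh7/7 array, and rose by 0.80 or more (log2, with dimmer values set to the floor). Its call as deposited was lost without SThdh111/111 sample 3 or 4 (adjusted p = 0.0516 and 0.0503). The antagonist genes Chrd and Chrdl2 differed by -0.18 and -0.48 and were not called.

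Among 11 receptors and co-receptors Bmpr1a was the 1 that rose, and 3 fell (median -0.30), against 13.1% and 15.9% of all genes. Acvr1, another type I receptor for BMPs, was at 9.27 ± 0.06 in SThdh111/111 and 10.27 ± 0.20 in SThdh7/7 (SD, n = 4), and fell by 1.00 ± 0.11 on the log2 scale (SE; adjusted p = 1.0e-05). Its other kept probe sets differed by -1.10 (adjusted p = 6.4e-05) and -0.08 (adjusted p = 0.87). Rgma, a BMP co-receptor of neural tissue, fell by 0.71, and Eng (endoglin), an endothelial co-receptor, by 0.61. The Eng call was lost after centring (adjusted p = 0.095) and without SThdh7/7 samples 1 and 2 (-0.47, adjusted p = 0.12), or without SThdh7/7 sample 1 or SThdh111/111 sample 4 alone (adjusted p = 0.058 and 0.056). Of 7 endothelial markers, measured beside Eng and Bmper and with Eng among them, 3 fell, against 15.9% of all genes, and 0 rose. Their summed intensity was 930.2 to 1035 in SThdh111/111 and 1156 to 1785 in SThdh7/7, with Pecam1 below the floor on every array; their part was not tested. The type II receptor Bmpr2 differed by -0.25 and lay close to the threshold (adjusted p = 0.0523), with only 0.0012 between the lines. It was called lower in 6 of 20 alternatives, but after centring the difference was -0.0932 (adjusted p = 0.713). The co-receptor Rgmb differed by -0.04 and was not called. Of 10 measured ligands Bmp4 was the 1 called, and 3 were below the floor on all arrays. Gdf2 differed by 0.15 and was not called. Bmp8a exceeded the floor on 1 SThdh111/111 array and on all SThdh7/7 arrays, and differed by -1.38 without passing the test (adjusted p = 0.066). It passed with dimmer values set to the floor, where the difference was -0.40 (adjusted p = 0.0334), and without SThdh111/111 sample 3 (-1.82, adjusted p = 0.0128).

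Differences among the SMAD transducers were small, at most 0.50 in size among the called ones. Of 6 transducers Smad3, which serves TGF-beta and activin, rose by 0.50 ± 0.07 (SE; adjusted p = 1.5e-04), a call lost with the mean of its probe sets (adjusted p = 0.070). Smad2, its partner in that branch, was lower by a difference of -0.32, called with all arrays but not after centring (-0.17, adjusted p = 0.38), without SThdh7/7 samples 1 and 2 (-0.25, adjusted p = 0.062), without an intensity trend (adjusted p = 0.0677) or with the mean of its probe sets (-0.19, adjusted p = 0.37). Its called probe set is an _a_at one, and the other Smad2 probe set differed by -0.05 (adjusted p = 0.94). Smad4 and Smad5, which work with Smad1, each differed by 0.06 and were not called. Among 8 intracellular brakes 2 rose and 4 fell, against 13.1% and 15.9% of all genes. Besides the inhibitory SMADs, Smurf2, a ubiquitin ligase that tags SMADs and receptors for degradation, rose by 0.95 ± 0.10 (SE), and all 3 of its probe sets were called higher. Skil (SnoN), a repressor of SMAD transcription, fell by 1.77 ± 0.11 on the log2 scale (SE; adjusted p = 3.0e-08), while its other probe set differed by -1.15 and was not called (adjusted p = 0.058). Ppm1a, a phosphatase of SMADs, and Tob1, an antiproliferative protein that binds SMADs, fell by 0.77 and 0.43. The Tob1 call was lost after centring (adjusted p = 0.40) and without SThdh7/7 sample 3 (-0.35, adjusted p = 0.0503), and the Ppm1a call with the mean of its 8 probe sets (adjusted p = 0.12). The SMAD repressor gene Ski differed by 0.33 and was not called (adjusted p = 0.068), but it was called higher with centred arrays (0.48, adjusted p = 0.013), with array weights (adjusted p = 0.0307), when SThdh7/7 sample 1 was left out (0.44, adjusted p = 0.00627) and when both SThdh7/7 samples that stood apart were (0.50, adjusted p = 0.00451), while the mean of its probe sets was 0.10. Smurf1, a relative of Smurf2, differed by -0.34 and lay close to the threshold (adjusted p = 0.0513). It was called lower in 5 of 20 alternatives, among them the mean of its probe sets (-0.58, adjusted p = 0.0032). After centring the Smurf1 difference was -0.18 (adjusted p = 0.503).

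Of 17 measured BMP targets, 6 of them members, 5 rose and 3 fell (median 0.07), against 13.1% and 15.9% of all genes. Outside the members, Atoh8, a bHLH gene induced by BMPs, exceeded the floor on all SThdh111/111 arrays and on 2 SThdh7/7 arrays, and rose by 0.93 or more (log2, with dimmer values set to the floor). Msx2, a homeobox target, was at least 1.27-fold higher, but its call (adjusted p = 0.047) did not hold in 7 of the 8 fits without 1 sample. Hey1, a bHLH repressor shared with Notch, exceeded the floor on 1 SThdh111/111 array and was called lower as deposited (adjusted p = 0.030). With dimmer values set to the floor the difference was -0.54 and the call was lost (adjusted p = 0.056), as it was in 5 of the 8 fits with 1 sample left out. The homeobox gene Msx1 and the GATA factor gene Gata2 differed by -0.08 and 0.13 and were not called.

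**Figure D4:**
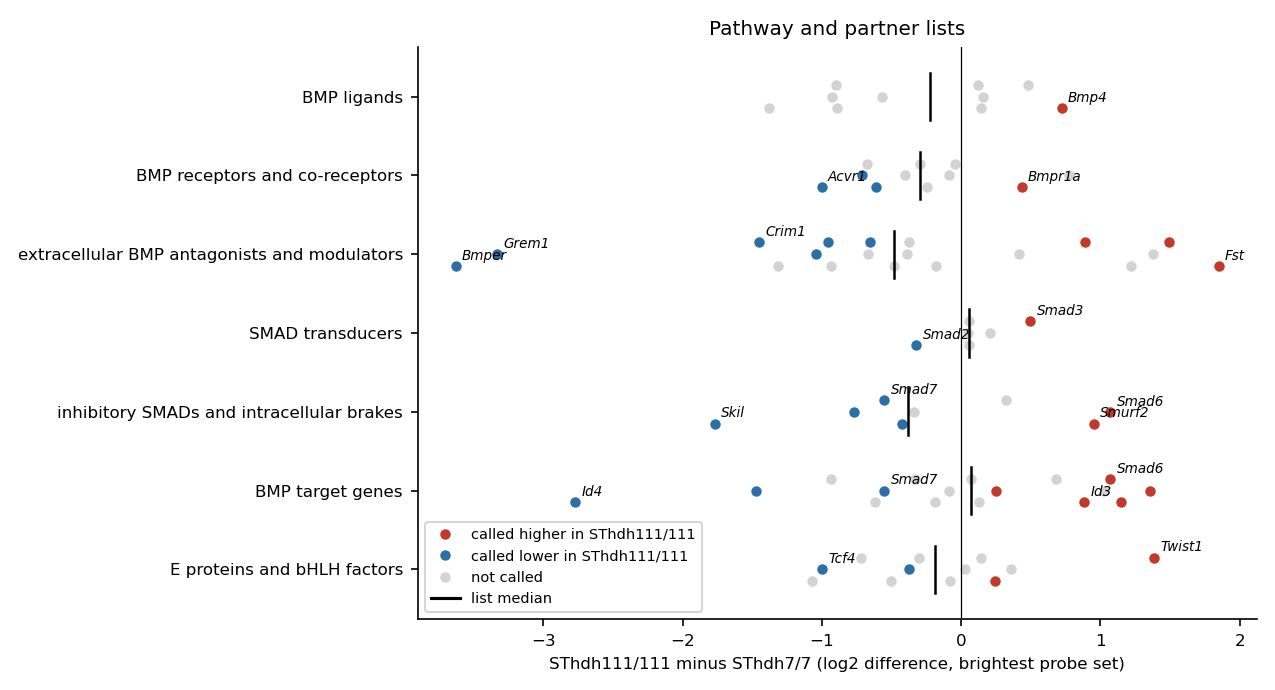
Log2 difference, SThdh111/111 minus SThdh7/7, at the brightest probe set of each gene in 7 lists, coloured by call, with the list median as a black bar and some called genes named. Bmper, Grem1 and Id4 lie furthest to the left, and Fst, Twist1 and Smad6 are among the called genes to the right.

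Of the 3 E proteins, the partners that Id proteins bind, Tcf4 was called lower, Tcf12 was called higher by a small and unstable margin and Tcf3 was not called. Tcf4 was at 11.08 ± 0.28 in SThdh111/111 and 12.08 ± 0.10 in SThdh7/7 (log2 intensity, SD, n = 4), and fell by 1.00 ± 0.12 (log2, SE; adjusted p = 1.9e-05), and all 6 of its kept probe sets were called lower. Tcf12 rose by 0.24 ± 0.07 (SE), a call lost under all 3 changes of scaling or trend and at 4 samples left out in turn, and the mean of its probe sets was -0.11. Tcf3 differed by 0.14 and was not called. Of the bHLH factors, Twist1, a mesenchymal factor that is itself on the marker list above, rose by 1.38 ± 0.10 (SE), and its relative Twist2 was lower by a difference of -0.37, a call lost after centring. Hand1 differed by -0.72 and was not called (adjusted p = 0.074), but it was called without SThdh7/7 sample 4 (adjusted p = 0.0398). The list as a whole had 2 rising and 2 falling of 12 measured (median -0.19), against 13.1% and 15.9% of all genes.

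Among 10057 genes with a mean log2 intensity of at least 8 in the brighter line, those whose values over the 8 arrays were most like the brightest Id4 probe set were Ccne2, Ap1s2 and Ckb, each with a Pearson r of 0.998. Their log2 differences were -2.37, -2.14 and -1.99. With 8 arrays in 2 lines this likeness is mostly the gap between the lines, and it is given as a description.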

How the data were processed

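Total RNA was biotin-labelled and hybridised to Affymetrix arrays, per the labels' protocols, and groups were read from sample titles. The deposited table holds 1 linear intensity per probe set and array. The submitters' processing notes name GCRMA alone, but the deposited intensity values have a 2% trimmed mean of 500.0 on every array, the form of MAS5 or GCOS signals, so the tool is not settled. Detection calls were not used here.

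The 64 control probe sets were left out, log2 was taken, and 41409 of 45037 probe sets with a log2 of at least 4 on at least 4 of 8 arrays were kept. Names came from the platform annotation, updated by Entrez number (34945 with 1 gene, 932 with several, 9160 with none). A gene stands for its brightest kept probe set. All kept probe sets were fitted with lmFit and eBayes with a trend by limma (version 3.58.1, R 4.3.3), and p-values were adjusted by Benjamini-Hochberg. Pairs of probe sets were compared by exact permutation in scipy 1.17.1. The floor comes from 27 bacterial controls, as their 95th percentile on the array where that was highest, an intensity of 130.0, an SThdh7/7 array; it was 72.0 to 77.5 on SThdh111/111 arrays. Where all arrays of the dimmer line lay below it, folds are bounds.

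The members, lists, tests and alternatives were chosen with earlier results of these data known. All members, the called genes of 7 lists and up to 2 bright uncalled genes a list are named. Deviations from the line means correlated at -0.014 to 0.0090 between same-numbered samples of the 2 lines, so the numbers showed no pairing. The fit was tested on simulated data with the means and spreads of these probe sets. It called 29 of 100 changes of 2-fold and 64 of 100 of 4-fold. Among those with a mean log2 of at least 8 it called 28 of 36 and 42 of 42. A gene that was not called can therefore still differ, above all at low signal. Alternatives covered filters, scaling, trend, weights, a block, probe set name endings, the floor and samples left out.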

Additional observations from a re-analysis of the deposited data

Results flagged for a closer look

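In 2 of 42 sets of 4 arrays at the member probe sets, 1 array lay far from the other 3, by Dixon's criterion. Chance alone flags about 1 set in 20. Id4 probe set 1423259_at read 4.61 on SThdh111/111 sample 1, against 5.86 to 6.04 on the other SThdh111/111 arrays, all of them below the floor. Bmpr1a probe set 1425494_s_at read 10.73 on SThdh111/111 sample 3, against 10.45 to 10.47 on the others.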

How the results depend on the processing

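The Id4 (3 probe sets), Id3, Smad6, Bmp4 and brightest Bmpr1a calls kept direction and threshold under all 19 alternatives run for them; Id1 kept its call under 9 of 18 and Smad7 under 12 of 19. Member probe sets called higher numbered 4 without an intensity trend (7 as reported), and 5 to 8 with 1 sample left out, while those called lower numbered 3 to 4. Over all kept probe sets 9288 were called, 6132 without probe sets ending in _x_at, _s_at or _a_at (2623 higher), where fewer were tested, and 8115 to 8754 with 1 sample left out. After centring 2777 were lower, against 5200 as deposited, so that the share of lower calls was 39.5%, against 56.0%, and 11 pathway genes were lower. The sample number as a replicate block called 8828 probe sets, 6 members higher and 4 lower, and of the member calls ended that of Id1 alone (adjusted p = 0.0531); among the named list genes it ended that of Msx2 (adjusted p = 0.0586) and added one for Ski (adjusted p = 0.033).

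Signs turned for values that were not called. Under quantile normalization Id2 1453596_at was 0.0254 and Smad1 1416081_at 0.0356. After centring they were 0.0121 and 0.13, Smad1 1459843_s_at 0.0036, Rgmb 0.11 and Msx1 0.0689. Smad7 1443771_x_at was -0.12 with array weights and -0.11 with low values at the floor. Without SThdh7/7 samples 1 and 2, Id2 was -0.26, -0.12 and 0.10, Smad1 1448208_at -0.18, Smad7 1443771_x_at -0.75, Rgmb 0.14, Chrd 0.0494 and Smad4 -0.17. With the mean of probe sets Rgmb was 0.0368, Smad4 -0.0208, Smad5 -0.0201, Gata2 -0.0713, Hand1 0.24 and Tcf12, called as reported, -0.11; Tcf12 was -0.59 without probe sets ending in _x_at, _s_at or _a_at. With 1 sample left out the ranges were -0.0433 to 0.19, -0.0906 to 0.13 and -0.31 to 0.10 for Id2, -0.0433 to 0.16 and -0.15 to 0.12 for Smad1 1448208_at and 1416081_at, -0.28 to 0.34 for Smad7 1443771_x_at, -0.11 to 0.0387 for Rgmb, -0.36 to 0.0119 for Chrd, -0.0555 to 0.13 for Smad4 and -0.0074 to 0.12 for Smad5. Among pairs of probe sets, the Smad7 pair turned to 0.43 without SThdh7/7 samples 1 and 2 (-0.61 as measured). Id4 1423260_at against 1450928_at was -0.105 with low values at the floor (0.82 as measured). Some Id pairs moved in size without SThdh7/7 samples 1 and 2 but kept their signs. Id1 against Id2 was 0.40 (0.18 as measured), Id2 against Id3 -1.01 (-0.81) and Id2 against Id4 2.56 (2.85). The causes were not tested. The number of arrays and the floor limit what dim probe sets such as Bmp2 can show.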
